A study of Mus musculus with 2 samples.

Results

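Solute carriers are membrane proteins that move nutrients, neurotransmitters, ions and metabolites across the plasma membrane or the membranes of organelles. The members described here were all genes on the array whose platform symbol has the form Slc or Slco followed by a family number, a letter and a member number, with Slc32a1 and Slc4a1 left out. They came to 151 genes of the 8251 genes measured, and to 185 probe sets of 10833 that name 1 gene. The rule reads the gene symbol alone and no measured value, though it was set with earlier results of these data known.

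The arrays compared Pax6-/- embryos with wild type embryos, both of the NMRI strain, in cerebral cortex at embryonic stage E14.5. Pax6 encodes a transcription factor of cortical progenitors, and the study was made to find its downstream targets. There was 1 Affymetrix array for each genotype. RNA was taken from 3 embryos of each according to the design text, which does not say whether it was pooled. The allele behind Pax6-/- is not named in the labels, and no group carried a further allele or agent. Without replicate arrays no difference below could be tested, and genes are described by the size of their difference. All values are MAS5 signals, the Affymetrix summary of a probe set on a linear scale. All log2 ratios are Pax6-/- over wild type after a pseudocount of 81.5 and centring, so they understate the differences of dim probe sets. Signals of different probe sets were not set against each other, because each has its own response, and only the marker sums below add them.

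In developing cortex, sodium-coupled carriers take up amino acids and transmitters, chloride carriers set the response to GABA, glucose carriers supply the tissue across the blood vessels and mitochondrial carriers exchange nucleotides and metabolites with the cytosol. Several carriers work only in pairs or with a partner protein, such as the heavy chain Slc3a2 with the light chain Slc7a5. Solute carriers also mark cell types, since endothelial, glial, meningeal and blood cells each use their own set.

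The Pax6 probe set had signals of 447 on the Pax6-/- array and 1169 on the wild type array, a log2 ratio of −1.29. As the allele is unknown, this probe set may lie outside the mutated region and is then no check of the labels. The median signal was 283.7 on the Pax6-/- array and 237.3 on the wild type array. Of 12 cortical marker genes listed, 7 were measured here and all 7 lay above the signal filter. Of these 7, 5 were lower and 2 higher, with a median log2 ratio of −0.51. Tbr1 was at 2405 on the Pax6-/- array and 5088 on the wild type array. The 2 higher ones were Nes, at 4035 on the Pax6-/- array and 3461 on the wild type array, and Sox2, at 5042 on the Pax6-/- array and 2304 on the wild type array. The Sox2 probe set has a suffix for relaxed probe selection. Markers of other cells that a dissection could hold were measured too. The summed signal of all 12 meningeal genes listed was 6650 on the Pax6-/- array and 6626 on the wild type array, and that of 11 of 12 vascular genes was 2581 on the Pax6-/- array and 2106 on the wild type array. The 12 microglial genes summed to 4240 on the Pax6-/- array and 2744 on the wild type array, and 8 of 11 erythroid genes to 16831 on the Pax6-/- array and 18758 on the wild type array. These sums are not centred, and the brightest probe sets weigh most in them. Csf1r alone read 1284 on the Pax6-/- array and 372 on the wild type array. Of 8 microglial genes above the filter 5 were higher and 3 lower, with a median log2 ratio of 0.17. The 7 meningeal genes above it ran from −1.04 for Igf2 to 1.52 for Twist2. No marker was at 0, and the lowest was the meningeal gene Foxc1, at 8.93 on the Pax6-/- array and 3.78 on the wild type array. In tissue RNA, fewer cells of a type and less RNA per cell cannot be told apart.

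A technical spread for single values came from the disagreement between probe sets of the same gene, over 894 genes that had a pair of them above the filter. It was 0.72 on the log2 scale at signals up to 471, 0.54 up to 826 and 0.38 above that, and it says nothing about differences between embryos. The filter kept genes whose brightest probe set reached a mean log2 level that corresponds to a signal of about 166, which left 97 of the 151 solute carrier genes and 5587 of all genes.

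The solute carrier genes lay on both sides of 0 in about equal number. Of the 97 above the filter, 49 were higher and 48 lower in Pax6-/- cortex, with a median log2 ratio of 0.00, beside −0.02 over all 5587 genes. Of all 5587 genes 48.4% were higher. Of the 97, 70.1% were within 0.5 of 0, beside 64.5% of all genes. Of the 97, 5 were at least 2-fold higher, where 5.05% of all genes were, and 7 were at least 2-fold lower, where 5.48% of all genes were. The 97 include 3 genes that are named after a carrier but are not carriers, and 2 of these are among the 7 lower. In both directions together 12.4% of the members and 10.5% of all genes passed 2-fold. None of the 97 passed 3-fold, where 1.04% of all genes were higher and 1.22% lower. These shares lie near those over all genes and set the solute carriers as a whole apart in neither direction. Over all 151 members, including those below the filter, 11 were at least 2-fold higher, where 6.67% of all genes were, and 9 at least 2-fold lower, where 5.58% of all genes were. The 54 members below the filter included 8 past 2-fold, beside 15.8% of all genes below the filter that passed in either direction.

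Differences of this size came mostly from dim genes. When the 5587 genes were divided into 3 equal groups by signal, 10 of the 47 members in the dimmest group were past 2-fold, or 21.3%, beside 21.5% of all genes there. In the middle group 1 of 31 members passed and in the brightest group 1 of 19, beside 6.98% and 3.06% of all genes. The median log2 ratio over all genes was 0.14 in the dimmest group and −0.17 in the brightest, and over members it was −0.07 in each. The part of signal in the substrate group medians below was not tested. Of the 12 members past 2-fold, only Slc6a9, Slc23a3 and Slc29a1 had signals above 166 on both arrays; the other 9 passed the filter through the array on which they were brighter. Among genes with both signals at or above the filter level, 3 of 79 members passed 2-fold, or 3.8%, beside 5.05% of all genes. With a pseudocount at percentile 50 in place of percentile 25, 4 members passed 2-fold on the higher side and 0 on the lower side, or 4.21% and 0%, beside 1.61% and 2.29% of all genes. Of the 97 members, 6 lay more than 2 technical spreads from 0, namely Slc6a13, Slc6a9, Slc23a3, Slc39a4, Slc15a2 and Slc35d1, beside 378 of all 5587 genes.

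**Figure D1:**
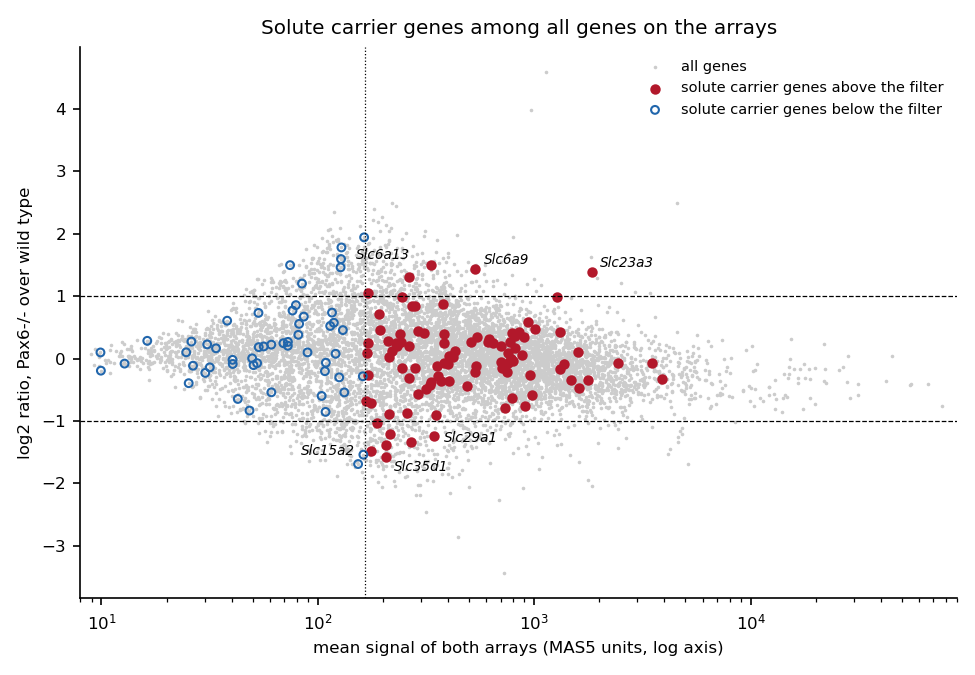
Log2 ratio of Pax6-/- over wild type against the mean signal of both arrays on a log axis, for all genes (grey) and for solute carrier genes above the filter (filled) and below it (open); dashed lines mark 2-fold and the dotted line the filter. The 97 filled points lie on both sides of 0, and 10 of the 12 past 2-fold are in the dimmest of 3 equal signal groups.

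Carriers of neurotransmitters held the highest ratios among the members above the filter. Slc6a13, which encodes the GABA and taurine carrier GAT2, had a signal of 629 on the Pax6-/- array and 161 on the wild type array. It was 2.83-fold higher in Pax6-/- cortex, with a log2 ratio of 1.5, the highest of these. In mouse brain GAT2 is known mainly from the meninges and blood vessels. The meningeal list had 7 members above the filter, of which 4 were higher and 3 lower, with a median log2 ratio of 0.34, and the vascular list had 4, of which 2 were higher, with a median of 0.39; their part in the Slc6a13 value was not tested. Slc6a9, which encodes the glycine carrier GlyT1 of glia and some neurons, had a signal of 950 on the Pax6-/- array and 286 on the wild type array. Its log2 ratio of 1.44 was 2.72-fold and stayed past 2-fold under all 9 other settings tried, as that of Slc6a13 did under the 8 that measured it.

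The other carriers of this group above the filter lay on either side of 0. The serotonin carrier gene Slc6a4 was at 412 on the Pax6-/- array and 185 on the wild type array, a log2 ratio of 0.85, from a probe set whose probes are shared within a gene family. Its other probe set read 30.4 on the Pax6-/- array and 40.9 on the wild type array. The noradrenaline carrier gene Slc6a2 was at 691 on the Pax6-/- array and 1179 on the wild type array, a log2 ratio of −0.75, while its second probe set read 158 on the Pax6-/- array and 144 on the wild type array. Slc1a2, the glutamate carrier GLT-1 of radial glia and astrocytes, was at 123 on the Pax6-/- array and 242 on the wild type array, a log2 ratio of −0.71, which is within 1 technical spread. The remaining 5 genes of the group were below the filter. They were the glutamate carriers Slc1a1 and Slc1a6, the betaine and GABA carrier Slc6a12, the dopamine carrier Slc6a3 and the vesicular acetylcholine carrier Slc18a3, with log2 ratios between −0.20 and 0.46. The group median was 0.85 over the 5 genes above the filter, which is the Slc6a4 value itself, and 0.22 over all 10. Without probe sets marked for shared probes or relaxed probe selection it was 0.37. The glutamate carriers Slc1a3, Slc17a6 and Slc17a7 were not analysed here.

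The upstream sequences of 4 members are shown because these genes had the highest ratios (Slc6a13 and Slc6a9) and the lowest ratios (Slc35d1 and Slc15a2) among those above the filter. Each line gives the 250 bases before a RefSeq transcript start on GRCm38.p6, on the gene's strand, taken from the most upstream of the windows at hand. Other transcripts can start further upstream: the gene as listed ends at 103222269 for Slc35d1 and at 36785158 for Slc15a2, so the first window lies within the gene and the second overlaps it. Capitals mark a match to TAATTA, the core read by many homeodomains, or to CAGATG on either strand (CATCTG on the other), an E-box form preferred by Neurog2 and Neurod factors; both were searched on both strands, and no match overlapped another.
Slc6a9, chr4:117835008-117835257, plus strand: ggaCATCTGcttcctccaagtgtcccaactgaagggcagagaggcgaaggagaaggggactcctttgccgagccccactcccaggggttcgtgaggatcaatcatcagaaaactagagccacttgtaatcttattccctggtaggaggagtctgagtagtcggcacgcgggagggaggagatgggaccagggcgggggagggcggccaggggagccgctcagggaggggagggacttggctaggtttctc
Slc6a13, chr6:121300038-121300287, plus strand: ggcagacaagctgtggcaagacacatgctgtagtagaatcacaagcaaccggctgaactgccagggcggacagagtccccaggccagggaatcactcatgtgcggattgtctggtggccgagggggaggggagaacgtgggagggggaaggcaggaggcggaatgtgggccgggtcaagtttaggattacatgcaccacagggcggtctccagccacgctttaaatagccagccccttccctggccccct
Slc15a2, chr16:36784963-36785212, minus strand: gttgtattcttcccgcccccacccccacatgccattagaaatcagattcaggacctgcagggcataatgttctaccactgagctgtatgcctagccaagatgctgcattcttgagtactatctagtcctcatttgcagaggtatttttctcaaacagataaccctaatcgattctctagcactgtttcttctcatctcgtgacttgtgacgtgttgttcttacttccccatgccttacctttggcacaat
Slc35d1, chr4:103215177-103215426, minus strand: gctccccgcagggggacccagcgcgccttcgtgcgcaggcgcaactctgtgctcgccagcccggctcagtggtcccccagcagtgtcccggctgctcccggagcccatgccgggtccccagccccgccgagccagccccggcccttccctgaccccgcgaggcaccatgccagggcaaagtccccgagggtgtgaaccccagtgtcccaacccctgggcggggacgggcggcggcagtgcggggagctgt
The Slc6a9 window holds 1 CAGATG match, 247 bases before the start, and the windows of the other 3 genes hold neither motif. RefSeq windows were matched for 123 of the 151 members, 78 of them above the filter. CAGATG was present in 11.5% of those 78, beside 9.92% of the 4508 windows of all genes above the filter, and TAATTA in 2.56%, beside 2.06%. Among the 11 members past 2-fold that were matched, Slc6a9 and Slc29a1 held CAGATG and 0 held TAATTA. The windows differ in base composition: G and C made up 75.2% of the Slc35d1 window, with 22 CpG dinucleotides, and 45.2% of the Slc15a2 window, with 4. A match is a run of letters and not a shown binding site.

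Amino acid and peptide carriers leaned to higher values. Of 18 above the filter 12 were higher and 6 lower, where 48.4% of all genes were higher. The median log2 ratio was 0.27. That median was 0.10 after quantile scaling and 0.077 after loess scaling, nearer to the median of all genes. The cationic amino acid carrier gene Slc7a2, which brings arginine and lysine into cells, was at 470 on the Pax6-/- array and 135 on the wild type array, a log2 ratio of 1.31 or 2.47-fold. Slc15a2, which encodes the di- and tripeptide carrier PEPT2 known from astrocytes and choroid plexus, ran the other way. It was at 75.9 on the Pax6-/- array and 343 on the wild type array, a log2 ratio of −1.48 or 2.78-fold lower.

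The paired light and heavy chains for large neutral amino acids differed less. The heavy chain gene Slc3a2 was at 1353 on the Pax6-/- array and 1397 on the wild type array, a log2 ratio of −0.09 that turned to 0.02 after loess scaling. The light chain gene Slc7a5 (LAT1) was at 1566 on the Pax6-/- array and 1106 on the wild type array, a log2 ratio of 0.43. The neutral amino acid carrier Slc38a4 had a log2 ratio of 0.87, Slc38a2 of 0.37, Slc38a10 of 0.35 and Slc38a5 of −0.07. Slc1a4, a serine and alanine carrier, read 796 on the Pax6-/- array and 768 on the wild type array and lay at 0.00. The taurine carrier gene Slc6a6 had 2 probe sets above the filter, at −0.03 and 0.21, and the creatine carrier gene Slc6a8 was at 0.41. The group thus held 1 gene past 2-fold in each direction, or 11.1% in all beside 10.5% of all genes, and 77.8% of it lay within 0.5 of 0, beside 64.5% of all genes.

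Glucose carriers split by member. Slc2a1 (GLUT1), the main glucose carrier of brain endothelium and also of neural progenitors, had a signal of 63.8 on the Pax6-/- array and 328 on the wild type array, a log2 ratio of −1.54. Its mean log2 level was just under the filter, and its ratio ran from −2.41 without a pseudocount to −0.90 with the larger one. The vascular genes beside it were not lower as a list: of the 4 above the filter, Cldn5 was at 1.06, Flt1 at 0.78, Kdr at 0.00 and Eng at −0.96; their part in the Slc2a1 value was not tested. Slc2a3 (GLUT3), the neuronal glucose carrier, was at 244 on the Pax6-/- array and 150 on the wild type array, a log2 ratio of 0.45. The intracellular carrier gene Slc2a8 was at 941 on the Pax6-/- array and 664 on the wild type array, a log2 ratio of 0.41, and Slc50a1, a sugar carrier of the Golgi and plasma membrane, was at 707 on the Pax6-/- array and 535 on the wild type array, a log2 ratio of 0.31. The insulin-responsive Slc2a4 had a ratio of 0.84, the fructose carrier Slc2a5 of −0.58 and the glucose 6-phosphate carrier Slc37a4 of −0.48. Of the 6 genes above the filter 4 were higher and none passed 2-fold, where 10.5% of all genes did. The median was 0.36, or 0.27 after loess scaling.

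The Slc35 family, most of whose known members carry nucleotide sugars into the Golgi and endoplasmic reticulum, held the lowest ratio among the members above the filter. Slc35d1, which supplies UDP-glucuronic acid and UDP-N-acetylgalactosamine for chondroitin sulfate synthesis, was at 87.9 on the Pax6-/- array and 407 on the wild type array. It was 2.98-fold lower in Pax6-/- cortex, with a log2 ratio of −1.57. Slc35g3, a family member best known from testis, was at 144 on the Pax6-/- array and 469 on the wild type array, a log2 ratio of −1.34. Both lay past 2-fold in 7 of 8 other settings and short of it with the larger pseudocount, and the 60th-percentile filter removed both. The brightest probe sets of the family were level: Slc35b1 read 2434 on the Pax6-/- array and 2471 on the wild type array, and Slc35b2, which carries the sulfate donor PAPS, read 916 on the Pax6-/- array and 844 on the wild type array. Their log2 ratios were −0.07, turning positive after quantile and loess scaling, and 0.06. Among its 7 genes above the filter, 5 had lower and 2 had higher values, with a median of −0.15 that was −0.07 when the probe sets of a gene were averaged, 0.06 with the 60th-percentile filter and −0.34 after loess scaling. Of the 7, 2 passed 2-fold, where 10.5% of all genes did.

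**Figure D2:**
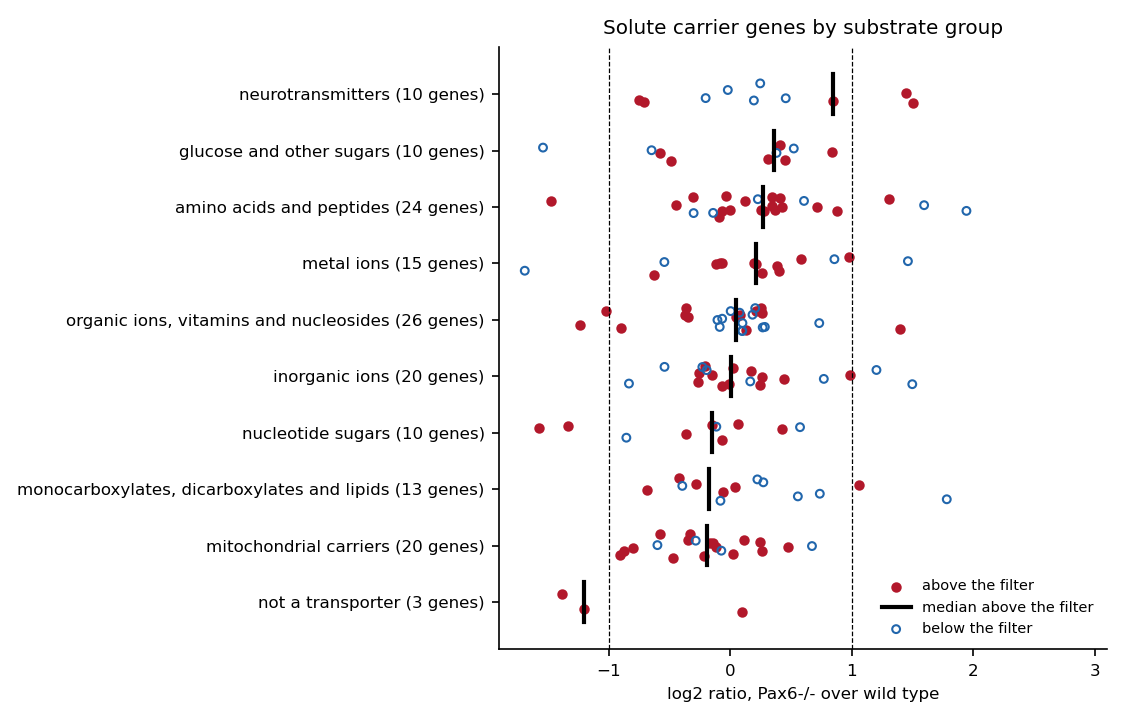
Log2 ratio of Pax6-/- over wild type for each of the 151 solute carrier genes by substrate group; filled points are above the signal filter, open points below it, black bars are group medians above the filter, and dashed lines mark 2-fold. Group medians of the transporters run from −0.19 for mitochondrial carriers to 0.85 for neurotransmitter carriers, the latter being the Slc6a4 value itself. The ranges of all groups overlap.

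Carriers of inorganic ions were divided evenly. Of 12 above the filter, 6 were higher and 6 lower, 91.7% were within 0.5 of 0, beside 64.5% of all genes, and none passed 2-fold, where 10.5% of all genes did. Slc12a2 (NKCC1), which loads immature neurons with chloride, was at 380 on the Pax6-/- array and 388 on the wild type array, a log2 ratio of −0.07. Slc12a5 (KCC2), which extrudes chloride from maturing neurons, was at 692 on the Pax6-/- array and 543 on the wild type array, a log2 ratio of 0.26, within 1 technical spread. The anion exchanger gene Slc4a2 read 884 on the Pax6-/- array and 1038 on the wild type array, and the phosphate carrier gene Slc20a1 read 883 on the Pax6-/- array and 750 on the wild type array. Their log2 ratios were −0.26 and 0.17. The exception was the sodium-calcium exchanger gene Slc8a1, at 386 on the Pax6-/- array and 148 on the wild type array, just short of 2-fold with a log2 ratio of 0.98. Its other 2 probe sets were below the filter at −0.30 and −0.56, so the higher value rests on 1 of 3 probe sets.

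Metal ion carriers held none past 2-fold among 11 above the filter, where 10.5% of all genes passed. Of these 11, 7 were higher, with a median log2 ratio of 0.21, or 0.17 after loess scaling. The zinc carrier gene Slc39a4 (ZIP4) was at 1857 on the Pax6-/- array and 871 on the wild type array, a log2 ratio of 0.98. That probe set has a suffix for relaxed probe selection, and the second one, below the filter, was at 105 on the Pax6-/- array and 246 on the wild type array, a ratio of −0.86. Slc30a3 (ZnT3), which fills synaptic vesicles with zinc, was at 3467 on the Pax6-/- array and 3525 on the wild type array, a log2 ratio of −0.07 that ran from −0.12 to 0.17 over the settings. Slc11a2 (DMT1), the iron carrier used in the gut and in red cell precursors, had 2 probe sets of the same sign, at 0.58 and 0.43. The erythroid list had 5 members above the filter with a median of −0.05, and its part in the Slc11a2 values was not tested. The copper carrier gene Slc31a1 also had 2 probe sets of the same sign, at 0.26 and 0.58, while Slc39a7 (ZIP7), a zinc carrier of the endoplasmic reticulum, was at −0.63.

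Mitochondrial carriers, grouped by the family name Slc25 and not by the location of each protein, leaned to lower values by small amounts. Of 16 above the filter 11 were lower and 5 higher, where 48.4% of all genes were higher. None passed 2-fold, where 10.5% of all genes did, and the median was −0.19. It was −0.07 with averaged probe sets, −0.11 with the 60th-percentile filter and −0.19 after loess scaling. The brightest of the 3 signal groups had a median of −0.17 over all genes, and the part of signal in the mitochondrial values was not tested. The adenine nucleotide carriers exchange ADP for ATP. Slc25a4 was at 3540 on the Pax6-/- array and 4319 on the wild type array, a log2 ratio of −0.33, and Slc25a5 was at 1384 on the Pax6-/- array and 1885 on the wild type array, a ratio of −0.47. The second Slc25a5 probe set lay at 0.71, and both share probes with related sequences or relax their selection. Another, with no suffix, was below the filter at 59.8 on the Pax6-/- array and 69.7 on the wild type array, a ratio of −0.14. The direction of Slc25a5 is thus not settled by these arrays. The carriers with the lowest ratios were Slc25a20, which imports acylcarnitines, at −0.91, the less studied Slc25a53 at −0.87 and the ATP-magnesium carrier Slc25a25 at −0.80. Slc25a20 read 240 on the Pax6-/- array and 502 on the wild type array. The highest above the filter was the oxoglutarate carrier Slc25a11, at 1226 on the Pax6-/- array and 828 on the wild type array, a log2 ratio of 0.48.

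Monocarboxylate, dicarboxylate and lipid carriers had 6 genes above the filter and a median of −0.17. The fatty acid transport protein gene Slc27a3 was at 287 on the Pax6-/- array and 90.1 on the wild type array, a log2 ratio of 1.06 or 2.08-fold, and it passed 2-fold in 5 of 8 other settings. Its relative Slc27a1 read 700 on the Pax6-/- array and 708 on the wild type array, a log2 ratio of −0.06, and Slc10a3 read 425 on the Pax6-/- array and 397 on the wild type array, a ratio of 0.04. The lactate carrier gene Slc16a1 (MCT1) was dim on both arrays, at 38.6 on the Pax6-/- array and 14.8 on the wild type array.

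Among carriers of organic ions, vitamins and nucleosides, 3 of 13 above the filter passed 2-fold, where 10.5% of all genes did. Slc23a3, a relative of the vitamin C carriers, was at 3104 on the Pax6-/- array and 1092 on the wild type array, a log2 ratio of 1.40 or 2.63-fold. Its second probe set, with no suffix, read 625 on the Pax6-/- array and 550 on the wild type array, a ratio of 0.12, so the fold rests on 1 probe set. The nucleoside carrier gene Slc29a1 (ENT1), which moves adenosine, was at 199 on the Pax6-/- array and 560 on the wild type array, a log2 ratio of −1.24, and its second probe set ran the other way at 0.76. Slc44a1, a choline carrier, was at 111 on the Pax6-/- array and 298 on the wild type array, a log2 ratio of −1.03, and was past 2-fold in 6 of 8 other settings. The reduced folate carrier gene Slc19a1 had 2 probe sets above the filter that were both lower: they read 138 and 155 on the Pax6-/- array and 314 and 274 on the wild type array, with log2 ratios of −0.90 and −0.64. Slc22a17, known as a lipocalin receptor, read 1582 on the Pax6-/- array and 1973 on the wild type array, a ratio of −0.35.

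**Figure D3:**
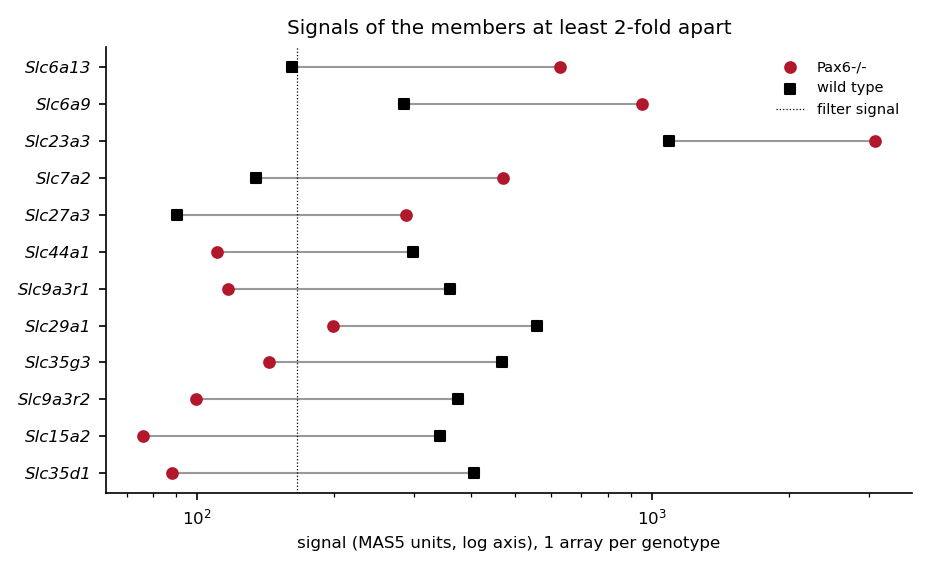
Signals of the 12 solute carrier genes above the filter that were at least 2-fold apart, on a log axis, with the Pax6-/- array as circles and the wild type array as squares; the dotted line is the filter signal of about 166. For 9 of the 12, the lower of the signals lies left of the dotted line, and the exceptions are Slc6a9, Slc23a3 and Slc29a1. Slc9a3r1 and Slc9a3r2 among the 12 are not carriers.

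The symbol rule also took in 3 genes named after a carrier that are not carriers themselves. Slc9a3r1 and Slc9a3r2 encode the scaffold proteins NHERF1 and NHERF2, which anchor ion exchangers and receptors to the actin cytoskeleton. Slc9a3r1 was at 117 on the Pax6-/- array and 361 on the wild type array, a log2 ratio of −1.20. Slc9a3r2 was at 99.2 on the Pax6-/- array and 375 on the wild type array, a ratio of −1.38. Each lies within 2 technical spreads of 0, and both kept the lower direction in all 8 other settings. Slc4a1ap, which encodes kanadaptin, was at 0.10.

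Probe sets of the same gene often disagreed. In 5 of the 12 members with 2 probe sets past the filter, both had one sign, beside 54.1% of the 894 such genes on the arrays. The 5 were Slc11a2, Slc19a1, Slc23a3, Slc30a5 and Slc31a1. The widest gaps were those of Slc29a1, Slc23a3, Slc25a5 and Slc25a51, the last at −0.58 and 0.52. In each of these 4 at least 1 probe set carried a suffix that marks shared probes or relaxed probe selection. Of the 12 members past 2-fold, 10 had a single probe set on the array, so no second measurement exists for them.

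**Figure D4:**
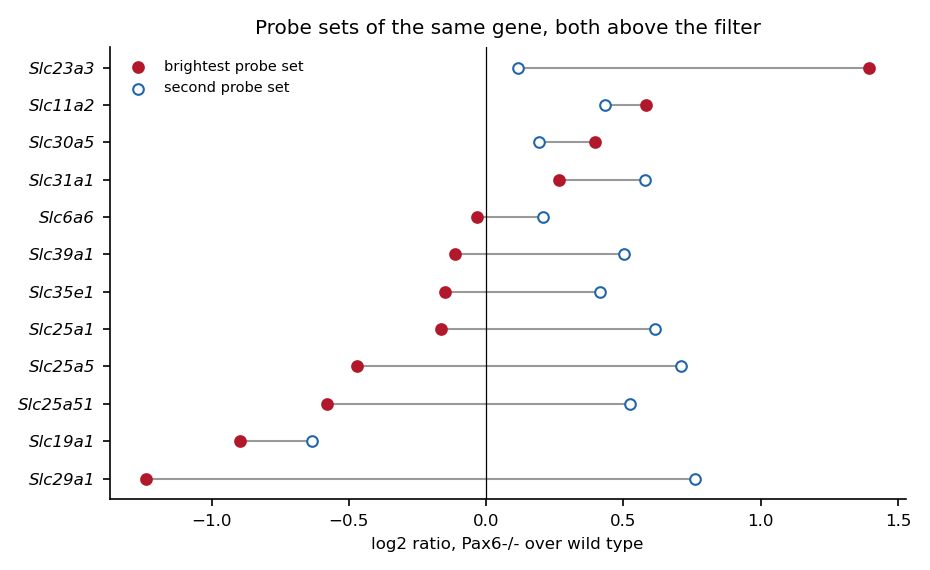
Log2 ratio of Pax6-/- over wild type for the 12 solute carrier genes with 2 probe sets above the filter, the brightest probe set filled and the second open. In 7 of the 12 the points lie on opposite sides of 0, with the widest gap for Slc29a1.

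Genes that work with the carriers were measured as a list of 19, of which 14 were on the array with a single symbol and 11 above the filter. Those 11 held 9 higher and 2 lower values, where 48.4% of all genes were higher, and their median log2 ratio was 0.41. Of the 11, 1 was at least 2-fold higher, where 5.05% of all genes were. That was Atp1b2, a glial subunit of the sodium pump whose gradient drives sodium-coupled uptake, at 346 on the Pax6-/- array and 91.1 on the wild type array, a ratio of 1.26. Its wild type signal was below the filter level, and its ratio was 0.75 with the larger pseudocount. Atp1b1 and Atp1b3, further pump subunits, were at 0.29 and 0.13. Glul, the glutamine synthetase of glia, was at 0.85 on a suffix probe set and at −0.15 on its brightest probe set without one. Bsg, the chaperone of lactate carriers, was at 1558 on the Pax6-/- array and 2366 on the wild type array, a log2 ratio of −0.62. Vdac2, a channel of the outer mitochondrial membrane, was at 0.72, and Got2, an enzyme of the malate-aspartate shuttle, at 0.60. Both values came from suffix probe sets, as did that of Atp1b1. The related channel gene Vdac1, below the filter, was at 67.7 on the Pax6-/- array and 223 on the wild type array, a ratio of −1.07. Without suffix probe sets the list median was 0.16.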

How the data were processed

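Biotin-labelled cRNA from total RNA of 1 Pax6-/- and 1 wild type cortex sample was hybridised to Affymetrix arrays. The authors deposited signal intensities on a linear scale, 1 per probe set and array; MAS5 is named in the submitters' processing notes, and its version, scaling target and detection calls are not stated there. Of 12488 probe sets, 66 are controls, 10855 have 1 symbol in GEO's platform annotation, 396 several and 1237 none. All 151 member genes matched the GRCm38.p6 gene table by gene ID, and 0 symbols differed.

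The pseudocount was the 25th percentile of all signals. The log2 difference was centred on its median over probe sets whose mean log2 value reached the 40th percentile, which removed a shift of 0.05. The probe set with the highest mean log2 value stood for a gene. Genes are counted by size, with no test; the number of arrays limits the precision. The genes named are members past 2-fold, the 2 brightest probe sets of each substrate group, members whose probe sets clearly agreed or disagreed, a fixed list, Pax6 and partners past 0.5; further genes were added to their groups with their values known. Members, substrate groups and lists were chosen with earlier results of these data known. Alternatives were no centring, quantile scaling, loess scaling with a fraction of 0.4 and 3 iterations, values floored at percentile 1 in place of a pseudocount, a pseudocount at percentile 50, no filter or one at percentile 60, averaged probe sets, no suffix probe sets, and thresholds of 1.5-fold and 3-fold. The steps were tested on simulated arrays. Their noise was smaller than the technical spread measured here, so they do not show the error rate on the real arrays. Python 3.11.15, numpy 2.4.6, pandas 2.3.3, statsmodels 0.14.6 and matplotlib 3.10.9 were used.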

Additional observations from a re-analysis of the deposited data

How the results depend on the processing

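The counts of solute carrier genes past 2-fold depended on the pseudocount and the filter. Without a pseudocount 11 were higher and 12 lower, or 11.2% and 12.2%, beside 7.99% and 7.81% of all genes. A pseudocount at percentile 50 left 0 lower, beside 2.29% of all genes. With no filter, and so with centring over all probe sets, 11 members were higher, or 7.28%, beside 6.04% of all genes. With the 60th-percentile filter 3 were higher and 0 lower, beside 2.49% and 2.92% of all genes. At 1.5-fold 11 were higher and 15 lower, beside 14.1% and 15.1% of all genes. At 3-fold 0 were higher and 0 lower, beside 1.04% and 1.22% of all genes. Over all genes the split of 282 higher and 306 lower moved to 204 and 370 after loess scaling, while the members moved from 5 and 7 to 5 and 10. The median over members ran from −0.06 to 0.07. The amino acid median was 0.10 with quantile and 0.077 with loess scaling. The neurotransmitter median was 0.17 with no filter, 0.40 with the 60th-percentile filter and 0.37 without suffix probe sets, where other genes enter it. The median of the non-carrier genes was −1.68 without a pseudocount, and that of the transport partners 0.16 without suffix probe sets. Of 36 named members 31 kept their direction under every alternative that measured them, and 8 of 307 recomputed values moved by more than 1 technical spread: Slc15a2, Slc16a1 and Slc2a1 without a pseudocount, Slc23a3, Slc25a5, Slc25a51 and Slc29a1 with averaged probe sets, and Slc23a3 without suffix probe sets. The cause was not tested beyond these constructions. No paired analysis was possible because each genotype has 1 array.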

Other observations

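Below the filter, 8 members were past 2-fold, 6 higher and 2 lower, or 8 of 54, where 15.8% of all genes below the filter passed in either direction; apart from Slc2a1 they were chosen after their values were seen. Slc7a6, a light chain that pairs with Slc3a2, was at 407 on the Pax6-/- array and 41.6 on the wild type array, while its second probe set read 153 on the Pax6-/- array and 62.9 on the wild type array, with log2 ratios of 1.94 and 0.65. Slc7a8, another such light chain, was at 289 on the Pax6-/- array and 37.2 on the wild type array. The fatty acid carrier gene Slc27a2 was at 314 on the Pax6-/- array, with a log2 ratio of 1.78. The sodium bicarbonate carriers Slc4a4 and Slc4a8 were at 185 and 174 on the Pax6-/- array and at 9.83 and 26.2 on the wild type array. Slc11a1 (NRAMP1), a metal carrier of macrophages, was at 271 on the Pax6-/- array and 42.4 on the wild type array. Of the 8 microglial genes above the filter 5 were higher, with a median of 0.17, and their part in the Slc11a1 value was not tested. The zinc carrier gene Slc39a9 was at 51.4 on the Pax6-/- array and 334 on the wild type array. Each of these has 1 signal below the filter level, so the size of its ratio depends on the pseudocount.

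Carriers known mainly from liver, kidney or gut read on either side of the filter signal of about 166; those given here were chosen after their values were seen. The bile acid carriers Slc10a1 and Slc10a2 read at most 178 on either array over 4 probe sets, the renal organic anion carrier Slc22a6 read 90.4 on the Pax6-/- array and 56.9 on the wild type array, and the intestinal glucose carrier Slc5a1 read 19.3 on the Pax6-/- array and 71.4 on the wild type array. The renal urate carrier Slc22a12 read 325 on the Pax6-/- array and 426 on the wild type array, and the renal amino acid carrier Slc6a18 read 416 on the Pax6-/- array and 574 on the wild type array. A probe set shared by Slc22a28 and Slc22a30, which belongs to no member because it names several genes, read 363 on the Pax6-/- array and 196 on the wild type array.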
